A study of Rattus norvegicus with 24 samples.

Results

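The genes described here are the 8 that carry the MHC class II antigen presentation pathway on the array, Cd74, Ciita, RT1-Da, RT1-Db1, RT1-Ba, RT1-Bb, RT1-DMa and RT1-DMb. They were chosen by symbol, and each is measured by 1 probe set that carries its symbol alone, so that 8 of 36495 tested probe sets and 8 of 18166 named genes are concerned. The samples were 24 pieces of peri-implant tibia from 12 male Sprague Dawley rats, an outbred stock. Every rat gave 1 array from a Li+ site, where a PLGA plug contained lithium carbonate, and 1 array from a Ctrl site, where the plug contained sodium carbonate. A biodegradable polymer plug in drilled bone is thus shared by all groups, and lithium and sodium differ together between the sites. Rats 4, 5, 7, 10, 11 and 15 were killed at day 7 and rats 21, 23, 27, 28, 29 and 30 at day 28, which gave 6 arrays for each implant and day. The 2 implants lay in the same animal, so that a Ctrl site is not an untreated animal, and an undrilled bone was not analysed here. The age of the rats is not given in the sources used here. Values are log2 signals, made by the authors with RMA. The number of arrays limits the precision of every value.

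MHC class II molecules are pairs of an alpha and a beta chain that show peptides from engulfed material to CD4 T cells. The invariant chain, encoded by Cd74, holds the new pair and guides it to endosomes, where proteases trim the chain to a short remnant. The DM molecule then exchanges this remnant for a peptide. Dendritic cells, B cells and macrophages make class II genes constitutively or on activation, and interferon gamma can switch them on in other cells through Ciita, the coactivator that binds factors assembled on the X and Y boxes of class II promoters. In the rat the RT1-D genes correspond to human HLA-DR, the RT1-B genes to HLA-DQ and the RT1-DM genes to HLA-DM. The chains of the classical molecules are among the most polymorphic genes of mammals.

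The study asked how lithium released from the plug, and the time after surgery, change gene expression in the healing bone. None of the 8 genes passed the adjusted threshold for Li+ or for time, whereas for 7 of them a larger share of the variation lay between rats than for most named genes. The invariant chain, Ciita and the classical chains RT1-Da and RT1-Ba went up and down together over the rats. RT1-Bb stood apart from them by a range of signal of 6.81-fold over the arrays, nearly all of it between rats.

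Of the 8 genes, 6 have an entry in the RefSeq promoter table of the rat assembly GRCr8, which covers a short stretch around the start of each gene. Ciita and RT1-DMb have none there. The windows below are shown because they hold letter matches to boxes of the kind through which Ciita acts. They are printed 5′ to 3′ on the strand of the gene, with every matched box in capitals. The motifs searched on both strands were the X box (CCNAG, then 2 of any base, AC, 3 of any base and TG), the Y box written as GATTGG, and the cyclic AMP response element TGACGTCA. For Cd74, whose window holds no GATTGG, the capitals on the second box mark CCAAT, which is contained in the complement of the Y box.
Cd74 (chr18:56526957-56527041, plus strand, X box then CCAAT): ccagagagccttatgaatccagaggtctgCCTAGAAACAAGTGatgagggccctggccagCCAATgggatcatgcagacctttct
RT1-Da (chr20:4515305-4515390, plus strand, X box then Y box): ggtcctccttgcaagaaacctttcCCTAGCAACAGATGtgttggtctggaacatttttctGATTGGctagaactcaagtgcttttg
RT1-Db1 (chr20:4560218-4560303, minus strand, Y box): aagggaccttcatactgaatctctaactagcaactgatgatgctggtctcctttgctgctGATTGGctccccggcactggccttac
RT1-Ba (chr20:4576953-4577038, plus strand, cyclic AMP response element then Y box): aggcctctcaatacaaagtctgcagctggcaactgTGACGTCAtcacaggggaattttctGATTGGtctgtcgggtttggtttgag
RT1-Bb (chr20:4604155-4604240, minus strand, X box then Y box): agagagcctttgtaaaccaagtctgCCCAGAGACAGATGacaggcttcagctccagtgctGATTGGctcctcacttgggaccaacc
RT1-DMa (chr20:4712375-4712460, minus strand, Y box): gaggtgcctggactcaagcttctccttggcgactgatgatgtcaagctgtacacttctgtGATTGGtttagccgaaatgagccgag
The X box letters were found in 3 of the 6 promoters (Cd74, RT1-Da and RT1-Bb) and in 1.1% of the 33469 promoters of the table. The Y box letters were found in 5 of 6 and in 14.81% of all promoters, and CCAAT in 6 of 6 and in 37.49%. Every GATTGG holds the complement of CCAAT, so that the count for CCAAT includes the promoters with a Y box. The cyclic AMP response element stood only in RT1-Ba among the 6, against 1.83% of all promoters. These are matches of letters, not measured binding, and a promoter without a match may hold a variant of the box.

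Of 7 bone genes, Col1a1, the main collagen chain of bone (12.78 to 13.69), and Ibsp, bone sialoprotein (11.81 to 12.81), gave high signals on all 24 arrays. Others of the 7 were lower and varied, with Sost at 8.37 to 9.84, Dmp1 at 8.90 to 11.07 and Phex at 8.87 to 11.5. Ngp, a protein of neutrophil granules, measured 12.93 to 13.55. On 3 arrays, the Ctrl sites of rats 23 and 29 and the Li+ site of rat 27, the mean of 8 skeletal muscle genes relative to their own means over all arrays was 2.43 to 4.37, against -0.70 to 0.32 on the other 21. The same kind of mean over the 8 class II genes was -0.21 to 0.30 on these 3 arrays and -0.47 to 0.53 on the others. In such bulk samples, fewer cells of a type and less RNA per cell cannot be told apart. The table gives no detection calls, so a gene is described by its signal and not as present or absent.

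**Figure D1:**
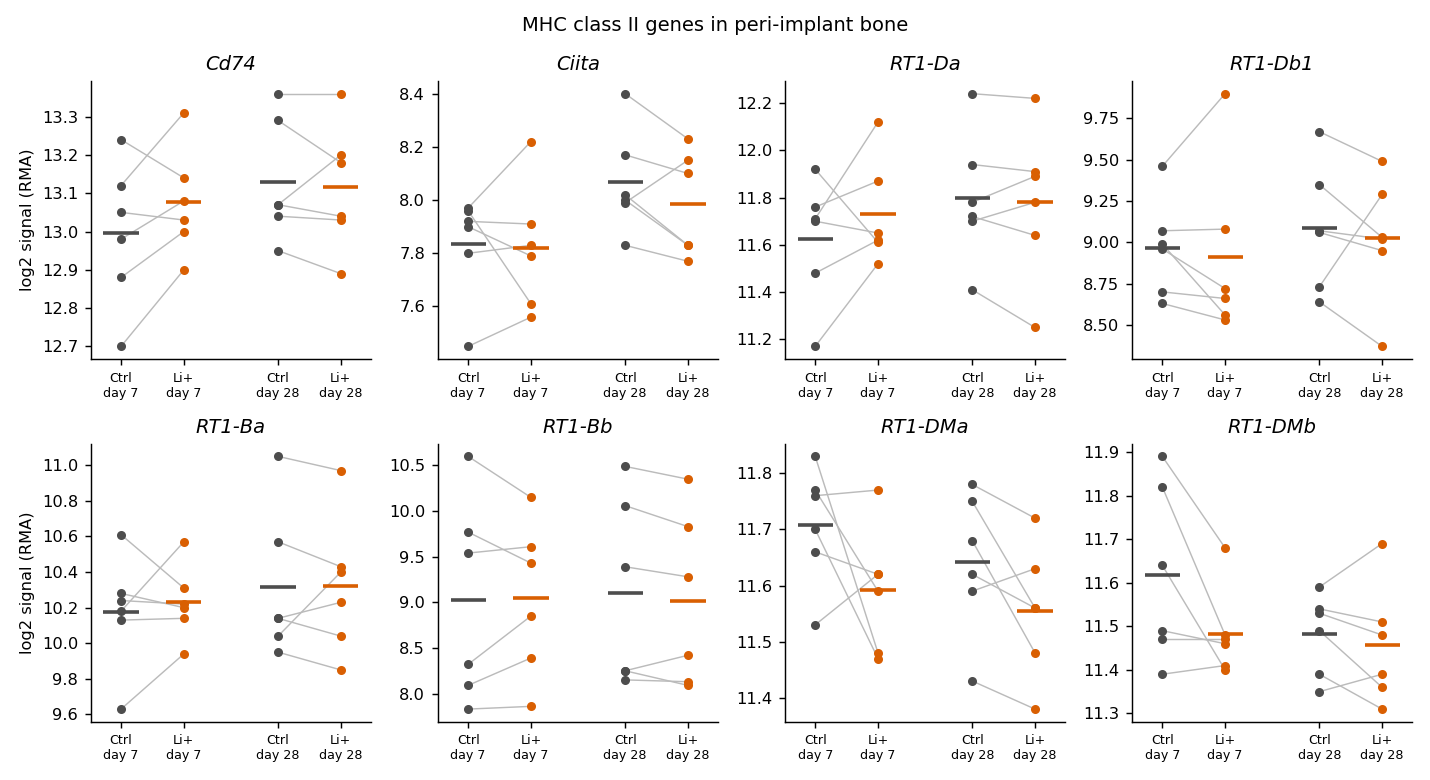
Log2 signal (RMA) of each class II gene on the 24 arrays, with 1 point for each site, a grey line joining the Ctrl and Li+ site of a rat and a bar at the mean of 6 arrays. The vertical scale differs between genes, the groups overlap in every panel, and RT1-Bb covers 7.83 to 10.6.

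Cd74 had the lowest, median and highest log2 signal of 12.70, 13.01 and 13.24 at Ctrl sites and 12.90, 13.05 and 13.31 at Li+ sites of day 7. At day 28 these values were 12.95, 13.07 and 13.36 at Ctrl sites and 12.89, 13.11 and 13.36 at Li+ sites. All 4 groups overlapped, and the whole range over 24 arrays was 1.58-fold. At day 7 the log2 fold change for Li+ against Ctrl was 0.08 (standard error 0.0642, adjusted p = 0.985 from limma, exact p = 0.188 from sign flips, higher at the Li+ site in 4 of 6 rats). At day 28 it was -0.01 (standard error 0.0468, lower in 5 of 6 rats).

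Ciita, the coactivator that limits class II transcription, lay at 7.45, 7.91 and 7.97 (lowest, median, highest) at Ctrl sites and 7.56, 7.81 and 8.22 at Li+ sites of day 7. At day 28 it lay at 7.83, 8.01 and 8.40 at Ctrl sites and 7.77, 7.96 and 8.23 at Li+ sites. The 2 days overlapped in both implant groups, although 5 of the 6 Ctrl arrays of day 28 lay above the highest of day 7. Between the days the log2 fold change was 0.24 in Ctrl (standard error 0.110, adjusted p = 0.44 from limma, exact p = 0.0498 over regroupings of 6 rats against 6) and 0.17 in Li+ (standard error 0.118, adjusted p = 0.529). The Ctrl value was the largest change over time among the 8 genes and did not pass the adjustment.

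Among the classical chains, RT1-Da, the alpha chain of the RT1-D molecule, measured 11.17, 11.70 and 11.92 at Ctrl sites and 11.52, 11.64 and 12.12 at Li+ sites of day 7. At day 28 it measured 11.41, 11.75 and 12.24 at Ctrl sites and 11.25, 11.84 and 12.22 at Li+ sites. Its partner RT1-Db1, the beta chain, covered 8.37 to 9.90 over the 24 arrays with a median of 9.01. The group means of RT1-Db1 lay between 8.91 and 9.08, well within the standard deviations of 0.296 to 0.522 between the 6 arrays of a group. RT1-Ba, the alpha chain of the RT1-B molecule, ranged from 9.63 to 11.05 with group means of 10.18 to 10.32. Its highest arrays were both sites of rat 28, at 11.05 and 10.97, and its 4 lowest were both sites of rats 15 and 21. For these 3 chains the groups overlapped in every comparison.

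RT1-DMa and RT1-DMb encode the chains of the peptide exchange molecule. RT1-DMa lay at 11.53, 11.73 and 11.83 at Ctrl sites and 11.47, 11.61 and 11.77 at Li+ sites of day 7, and at 11.43, 11.65 and 11.78 against 11.38, 11.56 and 11.72 at day 28. Its whole range, 1.37-fold, was the narrowest of the 8. RT1-DMb lay at 11.39, 11.56 and 11.89 at Ctrl sites and 11.40, 11.46 and 11.68 at Li+ sites of day 7, and at 11.35, 11.51 and 11.59 against 11.31, 11.44 and 11.69 at day 28. Both genes had group means at Li+ sites that lay below those at Ctrl sites on both days.

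For Li+ against Ctrl at day 7, 0 of the 8 genes passed the adjusted p from limma, where 0.00274% of all probe sets did, and 0 had an unadjusted p under 0.05, where 3.63% did. The t-test of the study's methods, paired within rats, also gave 0 at either threshold. Log2 fold changes ran from -0.13 for RT1-DMb (standard error 0.0704, adjusted p = 0.985 from limma, exact p = 0.125, lower in 4 of 6 rats) to 0.11 for RT1-Da, with 4 above and 4 below 0. Their median was 0.006, against 0.0011 over all probe sets, and lay between -0.072 (without rat 4) and 0.0678 (without rat 5) when single rats were left out. The 95% intervals of the 8 genes covered folds from 0.81 to 1.26, so that a larger effect of Li+ on any of them lies outside its interval at this day.

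At day 28 the counts for Li+ against Ctrl were again 0 of 8 at the adjusted p from limma (0% of all probe sets) and 0 of 8 at the unadjusted p (4.32%), and 0 by the t-test of the methods. The log2 fold change was below 0 for 7 of the 8 genes and reached from -0.09 in RT1-DMa to 0.01 in RT1-Ba, with a median of -0.042 against 0.0036 over all probe sets. RT1-DMa was lower at the Li+ site in 5 of 6 rats (standard error 0.0499, exact p = 0.0625 from sign flips, of which the smallest possible is 0.0313). Ciita stood at -0.08 (standard error 0.0592, adjusted p = 0.999 from limma) and was lower in 5 of 6 rats. Over all 8 genes the intervals covered folds of 0.80 to 1.15.

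With both days together, 0 of 8 genes passed the adjusted p from limma (0% of all probe sets). At an unadjusted p under 0.05 there was 1 gene, RT1-DMa, where 4.37% of all probe sets were called and 1.91% were called lower. RT1-DMa differed by -0.10 on the log2 scale (standard error 0.0430, unadjusted p = 0.0367 and adjusted p = 0.968 from limma, exact p = 0.0205 over 12 rats) and was lower at the Li+ site in 9 of 12 rats. RT1-DMb, the other chain of this molecule, stood at -0.08 (standard error 0.0405, adjusted p = 0.968 from limma, exact p = 0.0586) and was lower in 8 of 12 rats. The remaining values were 0.03 for Cd74, -0.05 for Ciita, 0.05 for RT1-Da, -0.06 for RT1-Db1, 0.03 for RT1-Ba and -0.03 for RT1-Bb, with adjusted p-values of 0.968 to 0.976 from limma. The sign for RT1-Ba and RT1-Bb turned when single rats were left out. Without rats 23, 27 and 29, which gave the 3 arrays high in muscle genes, RT1-DMa stood at -0.07 over both days and at -0.02 at day 28, Ciita at -0.14 at day 28, and 0 of 8 genes passed the adjusted p. Intervals over all 8 genes covered folds of 0.85 to 1.13.

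Within single rats the 8 genes often leaned to the same side. In rat 4 all 8 were higher at the Li+ site, by 0.00 after rounding (RT1-DMb) to 0.54 (RT1-Bb) on the log2 scale, and in rats 15 and 23 this held for 7 of 8. In rats 5, 21, 27 and 29 all 8 were lower at the Li+ site, in rat 5 by up to 0.45. Of the 3 rats on the higher side 2 were killed at day 7 and 1 at day 28, and of the 4 on the lower side 1 at day 7 and 3 at day 28. Over all named genes, 45.2% to 59.4% were higher at the Li+ site in these 7 rats, with the most in rat 23. The Ctrl sites of rats 23 and 29 and the Li+ site of rat 27 are the 3 arrays with high muscle genes, and the part of muscle in these leanings was not tested. In each of rats 10, 28 and 30, 6 of 8 genes were lower at the Li+ site, against 5 of 8 in rat 7 and 4 of 8 in rat 11. Most of the 8 genes are correlated with each other, so that those of a rat are not separate observations.

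**Figure D2:**
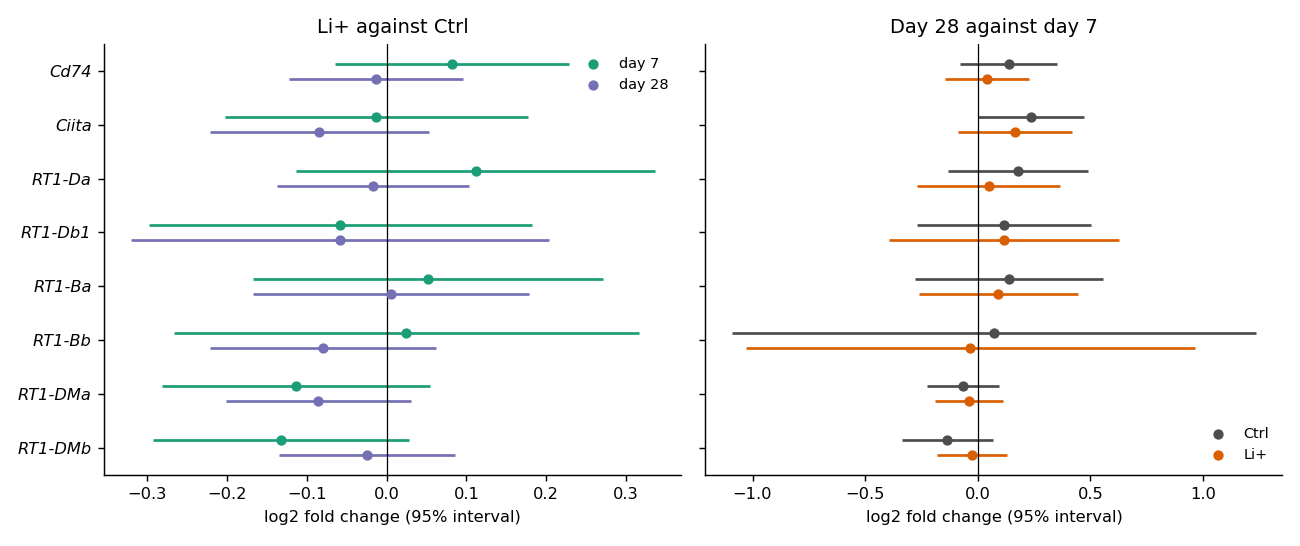
Log2 fold changes (points) with 95% intervals from limma (lines) of the 8 genes, at the left for Li+ against Ctrl on each day and at the right for day 28 against day 7 in each implant group. The horizontal scales differ between the panels, and the interval of RT1-Bb over time, from -1.09 to 1.24 in Ctrl, is the widest.

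Over time in Ctrl, 0 of 8 genes passed the adjusted p from limma (0.0959% of all probe sets) and 0 the unadjusted p (11.4%). Log2 fold changes ran from -0.13 for RT1-DMb to 0.24 for Ciita, with Cd74 at 0.14, RT1-Da at 0.18 and a median of 0.127, against 0.0206 over all probe sets. Over time in Li+, 0 of 8 passed the adjusted p (0.279%) and 0 the unadjusted p (16.1%), and the range was -0.04 to 0.17 with a median of 0.045. Without rat 28 these medians were -0.0035 in Ctrl and -0.0378 in Li+. The t-test of the methods, unpaired, gave 0 genes in either implant group at either threshold. With both sites of a rat averaged, the counts were 0 of 8 at the adjusted p (0.965%) and 0 of 8 at the unadjusted p (17.1%).

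In the rat averages the change of Ciita was 0.20 on the log2 scale (standard error 0.101, adjusted p = 0.335 from limma, exact p = 0.0952) and Cd74 one of 0.09 (standard error 0.0855, adjusted p = 0.658). RT1-Da stood at 0.11, RT1-Db1 at 0.12, RT1-Ba at 0.12 and RT1-Bb at 0.02, and the DM chains at -0.05 (RT1-DMa) and -0.08 (RT1-DMb). The days overlapped for all 8 genes. Without rats 23, 27 and 29 Ciita stood at 0.19 in rat averages (adjusted p = 0.664 from limma), and 0 of 8 genes passed. For 7 genes the intervals covered folds between 0.81 and 1.45, while that of RT1-Bb reached from 0.48 to 2.13, so that these arrays leave RT1-Bb over time far less precisely known than the other genes. The interaction of implant and day, which compares the time courses, gave 0 of 8 genes at the adjusted p (0%) and 0 at the unadjusted p (3.62%), with differences of -0.13 (RT1-Da) to 0.11 (RT1-DMb) on the log2 scale and adjusted p-values from 0.9995 to 0.9996 from limma.

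The variation was split into a part between rats and a part between the sites of a rat. With group means subtracted, the between-rat share, that is the intraclass correlation of the 2 sites of a rat, was 0.959 for RT1-Bb, 0.811 for Cd74, 0.780 for RT1-Ba, 0.730 for RT1-Da, 0.712 for RT1-Db1, 0.651 for Ciita and 0.628 for RT1-DMb. Over the 18166 named genes the median share was 0.305, with quartiles of 0.068 and 0.504. These 7 genes therefore lay above the upper quartile, and RT1-DMa, at 0.325, was near the median of all genes. Leaving out single rats moved the share of RT1-DMa between -0.0095 and 0.521 while that of RT1-Bb stayed at 0.948 or above. Only 5 named genes had a higher share than RT1-Bb. For Cd74 the standard deviation was 0.156 for rat means and 0.101 for the differences between the 2 sites of a rat. For RT1-Bb these values were 0.977 and 0.281, and the medians over all named genes were 0.115 and 0.174. A difference carries the variation of both sites and a mean averages it. The 2 measures are therefore on unlike scales and are not compared with each other. They were 0.323 and 0.227 for RT1-Ba, 0.255 and 0.202 for RT1-Da, and 0.373 and 0.307 for RT1-Db1. For Ciita they were 0.189 and 0.174, for RT1-DMb 0.127 and 0.121, and for RT1-DMa 0.094 and 0.134. The sites of a rat were thus no closer in RT1-Bb, RT1-Db1, RT1-Ba and RT1-Da than in the median gene.

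**Figure D3:**
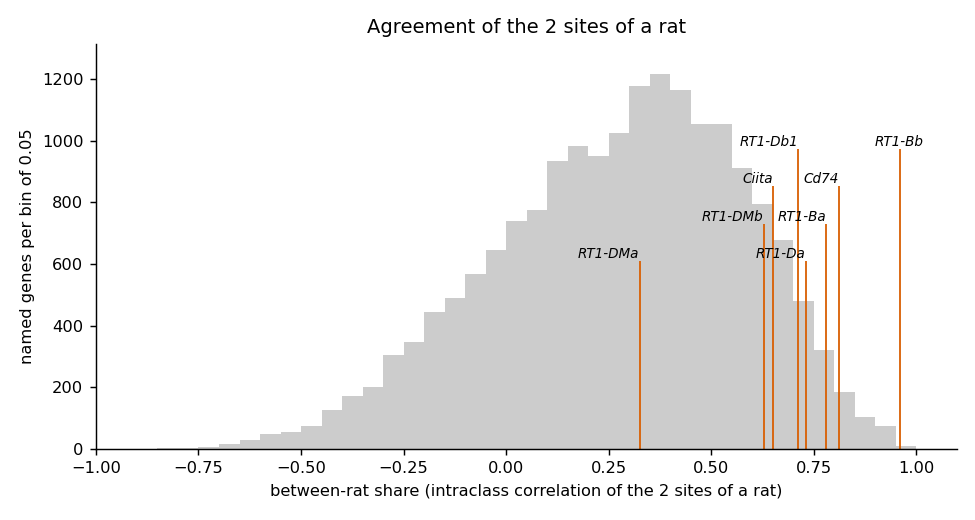
Histogram of the between-rat share over 18166 named genes (grey, number of genes per bin of 0.05) with the 8 class II genes as lines whose height carries no value. RT1-Bb lies at 0.959 at the right end and RT1-DMa at 0.325 within the bulk.

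RT1-Bb, the beta chain of the RT1-B molecule, showed this most plainly. The lowest rat, 15, had 7.83 at its Ctrl site and 7.86 at its Li+ site, and the highest, 28, had 10.49 and 10.35. Rats 15, 27, 30, 11, 23 and 4 lay between 7.83 and 8.85 at both sites, and rats 21, 7, 10, 29, 5 and 28 between 9.28 and 10.6. Each of these ranges held 3 rats of day 7 and 3 of day 28. The gap of 0.75 between the rat means of both ranges was the widest in the order of the 12 rats, and the next was 0.43. Neighbours within a range lay as little as 0.02 apart, so that the order of such close neighbours is not resolved by these arrays. The days and the implants were spread over both ranges, and no test was made between rats sorted by their own signal. Allele differences between outbred rats under the probes can alter a signal without a change in RNA. Their part in the signal of RT1-Bb was not tested.

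**Figure D4:**
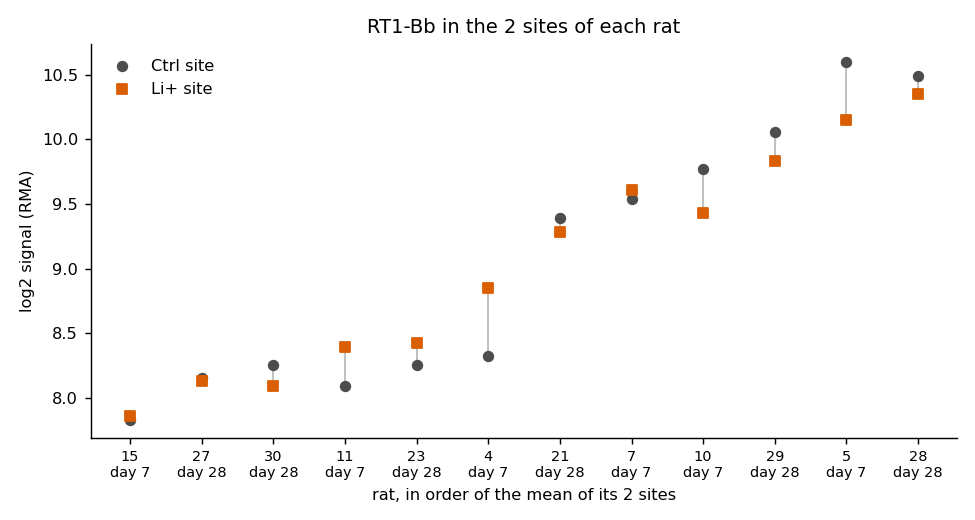
Log2 signal of RT1-Bb at the Ctrl site (circles) and the Li+ site (squares) of each rat, with a line between the sites and the rats ordered by their mean. The 6 rats at the left lie between 7.83 and 8.85 and the 6 at the right between 9.28 and 10.6, each with 3 rats of either day.

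RT1-Ba, the partner chain, moved with RT1-Bb within each range, with r = 0.962 over the means of the 6 lower rats and 0.878 over those of the 6 upper rats, and with 0.701 over all 24 arrays after the group means were removed. In GRCr8 the named genes of this stretch of chromosome 20 follow each other as RT1-Da, RT1-Db2, RT1-Db1, RT1-Ba, RT1-Bb, RT1-DOb, Tap2, Psmb8, Tap1, Psmb9, RT1-DMb and RT1-DMa. The neighbours were not alike. RT1-DMb (r = 0.768), Tap2 (0.793) and Psmb9 (0.778), the last 2 being a peptide transporter chain and a proteasome subunit of the class I route, were high on arrays where RT1-Bb was high. RT1-Db2 (-0.761), a further beta chain gene, and Psmb8 (-0.740), a proteasome subunit, were low there. RT1-Db1 (0.086), Tap1 (-0.022) and RT1-DMa (-0.115), which lie between or beside them, showed next to no relation. The highest r of all named genes outside the 8 was that of Vps52, a gene of membrane traffic 17 places away, with r = 0.901. Within the lower and the upper rats the r of Vps52 was -0.007 and 0.272 and its rat means were 10.11 to 10.19 and 10.42 to 10.59. Of the 20 genes outside the members with the largest size of r, 6 lie on chromosome 20, as 2.9% of the named genes do. Within the lower and the upper rats r was 0.568 and -0.328 for Tap2, 0.507 and 0.203 for Psmb9, -0.617 and -0.689 for Psmb8, and -0.636 and -0.514 for RT1-Db2. These neighbours were picked after their values were seen, and the 24 arrays share 12 rats, so the correlations are descriptions. They are correlations of signals, and allele differences under the probes of these genes were not tested.

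RT1-Db2 and RT1-Db1 are related beta chain genes, and cross-hybridization between their probe sets was not analysed here. The signal of RT1-Db2 lay at 7.62 to 8.26 in Ctrl at day 7 and 8.19 to 8.68 at day 28, a change of 0.41 on the log2 scale (standard error 0.117, unadjusted p = 0.00351, adjusted p = 0.203 from limma). In Li+ the change was 0.36 (adjusted p = 0.216). For RT1-Db1 the corresponding values were 0.12 in both implant groups, with standard errors of 0.179 and 0.236.

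Over the 12 rats, Cd74 was related to the other genes in rat means after the mean of each day was removed. The family holds 6 relations, with p-values from 100000 permutations within days and adjusted over the 6. RT1-Bb was left out for its separate ranges, a choice made after its values were seen. Its r with Cd74, over the 24 arrays with group means removed and not over rat means, was 0.540. For RT1-Da, r was 0.940 and Spearman's rho 0.951 (permutation p = 5e-05 and 9e-05, adjusted 0.00024 and 0.00027). For Ciita, r was 0.920 and rho 0.937 (permutation p = 0.00013 and 8e-05, adjusted 0.00026 and 0.00027). For RT1-Ba, r was 0.916 and rho 0.839 (permutation p = 8e-05 and 0.0007, adjusted 0.00024 and 0.0014). RT1-Db1 followed with r = 0.751 and rho = 0.685 (permutation p = 0.00834 and 0.022, adjusted 0.0125 and 0.033). Without the 2 rats farthest from the median of Cd74, these r were 0.896, 0.849, 0.882 and 0.680.

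The relations of the DM chains to Cd74 did not pass the adjusted threshold, which with 12 rats does not show that they are absent. RT1-DMa had r = 0.455 and rho = 0.413 (permutation p = 0.160 and 0.206, adjusted 0.160 and 0.247) and RT1-DMb r = 0.515 and rho = 0.357 (permutation p = 0.105 and 0.281, adjusted 0.126 and 0.281). Within day 7 and day 28, r with Cd74 was 0.926 and 0.973 for RT1-Da, 0.947 and 0.893 for Ciita, and 0.897 and 0.967 for RT1-Ba. It was 0.587 and 0.942 for RT1-Db1, 0.799 and 0.266 for RT1-DMa, and 0.418 and 0.653 for RT1-DMb.

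**Figure D5:**
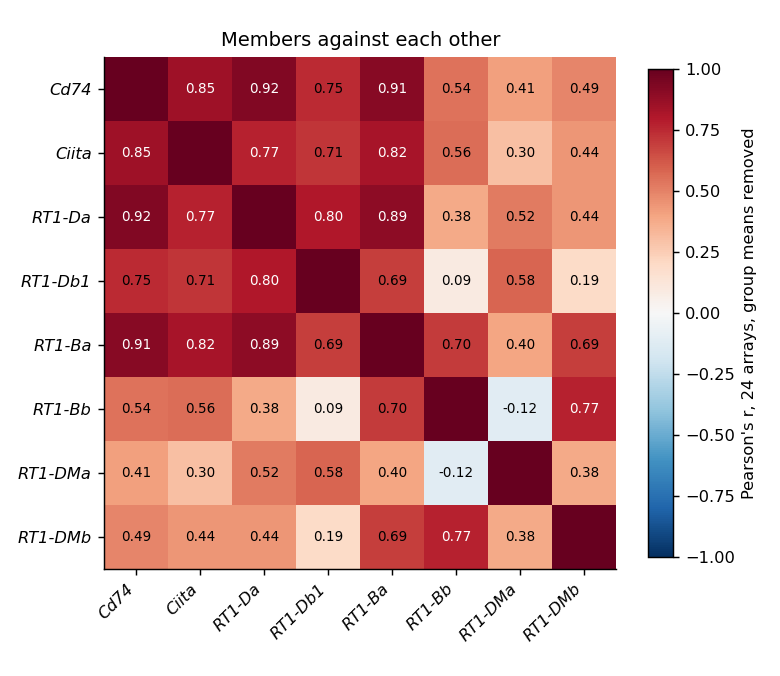
Pearson's r between the 8 class II genes over 24 arrays with group means subtracted, as colour and number. Cd74, Ciita, RT1-Da and RT1-Ba form a block of 0.77 to 0.92, whereas RT1-Bb against RT1-Db1 (0.09) and against RT1-DMa (-0.12) lies near 0.

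The genes whose pattern over the 24 arrays was most like the mean of the 8 (each gene relative to its own mean) were Gm2a, the activator of a lysosomal hexosaminidase, with r = 0.745, Cadm3 (0.740), Tmem176b (0.737), Tnfrsf17, the BCMA receptor of plasma cells (0.710), Aspa (0.702), Igkvl7 (0.700), Tmem176a (0.698), Rimkla (0.691), Tril (0.672) and Plppr5 (0.671). With the group means removed they were Tmem176b (0.804), Lilrb3, an inhibitory leukocyte receptor (0.802), Ninj1 (0.783), Cmtm6 (0.783), Slc26a11 (0.772), Cadm3 (0.771), Gm2a (0.768), Tmem37 (0.749), Trem2, a receptor of macrophages and microglia (0.743), and Cd83, a surface protein of mature dendritic cells that stabilizes class II (0.732). The arrays share 12 rats and the genes were picked for their r, so no test applies. The mean of the 8 is not scaled, and RT1-Bb had by far the widest spread in it. With RT1-Bb left out of the mean, 2 of these 10 genes, and 4 of the 10 with group means removed, were still among the 10 most alike.

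Cell type markers were read beside these patterns. Over the 12 rats, with day means removed, the mean of the class II genes had r = 0.735 with that of 10 dendritic cell genes, 0.701 with 13 macrophage and monocyte genes, 0.363 with 7 T cell genes, -0.091 with 8 B cell genes and -0.386 with 6 neutrophil genes. With RT1-Bb left out of the class II mean these r were 0.820, 0.641, 0.334, -0.250 and -0.620. For 7 bone genes r was 0.301, for 2 osteoclast genes 0.468, for 2 endothelial genes 0.355 and for 8 skeletal muscle genes -0.242. Without RT1-Bb these values were 0.546, 0.632, 0.518 and -0.083, so that a positive r was not limited to lists of immune cells. The dendritic score covered only -0.13 to 0.17 and the macrophage score -0.26 to 0.23 over the arrays. The 10 dendritic genes reached from Cd209a (5.11 to 5.65 over the arrays) and Xcr1 (6.01 to 7.13) over the dendritic factor Zbtb46 (7.03 to 7.40) and Flt3 (8.77 to 9.39) to Itgax (9.99 to 11.0). The 7 T cell genes include Cd4 (11.49 to 12.49) beside Cd3e (7.65 to 8.53), and the cells that gave the Cd4 signal were not identified. The part of the listed cell types in the rat-to-rat pattern was not tested.

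Over time in rat averages, 3 of 8 B cell genes rose at the adjusted p from limma, where 0.965% of all probe sets passed in either direction. They were Fcmr by 0.56 (standard error 0.0878, adjusted p = 0.0182), Blk by 0.62 (adjusted p = 0.0234) and Cr2 by 0.44 (adjusted p = 0.0364), and the median of the list was 0.432. Of 13 macrophage and monocyte genes 1 passed and fell (0.965% of all probe sets in either direction), the scavenger receptor Msr1, by -0.84 on the log2 scale (standard error 0.159, adjusted p = 0.036), and the median was -0.214. Cd163, a scavenger receptor of resident macrophages, stood at 0.28 (adjusted p = 0.158) and C1qb at -0.03. The mean of B cell genes, each relative to its own mean over the arrays, reached from -0.43 to -0.01 at day 7 and from -0.10 to 0.38 at day 28. That of macrophage genes reached from -0.05 to 0.23 at day 7 and from -0.26 to 0.11 at day 28. Their part in the class II values was not tested.

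In the rest of the pathway, 11 genes of endosomal processing were measured. Over time in rat averages 2 of them fell at the adjusted p, where 0.965% of all probe sets passed in either direction. They were Ctsl, a cathepsin that cuts the invariant chain in the thymus of mice, with -0.80 (standard error 0.167, adjusted p = 0.0452 from limma), and Lgmn, an asparaginyl endopeptidase, with -0.53 (standard error 0.107, adjusted p = 0.0413). At the unadjusted p, 7 were lower and 1 was higher, where 7.87% and 9.24% of all probe sets were, and the median of the list was -0.164. Ctss, the cathepsin that removes the invariant chain in antigen-presenting cells, stood at -0.17 (adjusted p = 0.39) and Ifi30, the lysosomal thiol reductase, at -0.16 (adjusted p = 0.249). For Li+ against Ctrl over both days 3 of the 11 were higher at the unadjusted p (2.47% of all probe sets) and 0 at the adjusted p, namely Ctss at 0.14, Lgmn at 0.14 and Ctsl at 0.15, each with an adjusted p of 0.968.

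The 7 promoter factors gave 0 calls at the adjusted p in every comparison. At the unadjusted p over time, 0 of 7 were called in Ctrl, 6 of 7 were higher in Li+ (8.72% of all probe sets) and 4 of 7 in rat averages (9.24%), with medians of 0.124 in Ctrl and 0.135 in Li+. The interaction of implant and day gave 0 calls at the adjusted p and 1 at the unadjusted p (3.62% of all probe sets). The 4 in rat averages were Rfxap (0.16) and Rfx5 (0.13), subunits of the X box complex, Nfyc (0.13), a Y box subunit, and Creb1 (0.13). Rfxank, the third subunit of the X box complex, stood at -0.01. The median of the 7 was 0.134 in rat averages, against 0.0197 over all probe sets.

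Of the genes around Ciita, the interferon gamma axis (7 measured, 0 at the adjusted p in any comparison) had Ifng, the cytokine itself, at -0.06 over time in rat averages and its receptor chain Ifngr2 at -0.25 (adjusted p = 0.0555). The 4 regulators of Ciita gave 0 adjusted calls, and Prdm1, a repressor of Ciita in plasma cells, stood at -0.58 (adjusted p = 0.0732), with Irf4 at 0.27 and Spi1 at -0.08. The further class II genes RT1-DOa, RT1-DOb and RT1-Ha, of which the DO chains restrain DM, gave 0 calls of 3, with RT1-DOb at 0.19 and RT1-DOa at 0.10. Among 6 turnover genes, with 0 adjusted calls, the ubiquitin ligases Marchf1 and Marchf8 stood at 0.16 and 0.05 and the endosomal tetraspanin Cd63 at -0.37 (adjusted p = 0.076).

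On the side of the T cell, 9 genes gave 0 adjusted calls, with Cd4, the coreceptor for class II, at 0.04 over time and Cd3g at 0.28 (adjusted p = 0.13). The signal of Cd4 was 11.49 to 12.49 over the arrays and that of Cd3e 7.65 to 8.53. The cells that gave the Cd4 signal were not identified, so it is not read as a measure of T cells. The 7 costimulation genes also gave 0, with Cd80 at 0.03 and Cd86 at -0.01. The class I route, measured as 11 genes, gave 0 as well, with B2m at -0.02 and Nlrc5, the class I counterpart of Ciita, at 0.18 (adjusted p = 0.272). The medians of these 3 lists in rat averages were 0.039, -0.010 and 0.036.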

How the data were processed

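Bone RNA from 24 sites was hybridized to Affymetrix Rat Gene 2.0 ST arrays, 1 array per site. The deposited values are log2 signals that the authors made with RMA (Affymetrix Expression Console version 1.1.2), which equalizes the distributions of the arrays, so that values are relative to the other genes of an array. No scanner files were used here, and hybridization dates are not given in the sources used here. After 190 control probe sets were left out, 36495 probe sets were tested with no filter on low signals. GEO's platform annotation gave 1 symbol to 18511 probe sets, several to 575 and none to 17409.

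Linear models were fitted with limma 3.58.1 in R 4.3.3 (lmFit and eBayes), and the Benjamini-Hochberg adjustment ran over the 36495 probe sets, with a threshold of 0.05. Li+ was compared with Ctrl, and the interaction with time tested, with the rat as a block. Same-numbered arrays come from the same animal per the labels, and deviations from group means correlated within rats with a median r of 0.279 (0.068 to 0.569, over 0.1 in 11 of 12 rats). Days were compared unpaired, in each implant group and in rat means. Exact tests, two-sided, used sign flips within rats or regroupings of rats (Python 3.11.15, scipy 1.17.1). Intervals are 95%. The t-test of the methods, another handling of the block, centering, filters on signal and leaving out rats were tried as alternatives. The models were tested on simulated data.

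The 8 genes, the marker and pathway lists and the tests were chosen with earlier results of these data known. All 8 genes are named, the 10 genes most alike to their mean, each list gene at an adjusted p and otherwise up to 4 of largest signal in a list. Further list genes were named after their values were seen. Genes of the lists without a matching single-symbol probe set were not analysed here. Promoters were read from the RefSeq table of GRCr8.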

Additional observations from a re-analysis of the deposited data

Results flagged for a closer look

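Of 32 groups of 6 arrays (8 genes in 4 groups), 2 held an array that stood apart from the others by Dixon's criterion (the gap to the next array over the range of the group), where chance flags about 1 in 20 groups. The lowest Ciita array of Ctrl at day 7 was that of rat 15, at 7.45, with the next at 7.80 (gap over range 0.682). The highest RT1-DMb array of Li+ at day 7 was that of rat 5, at 11.68, with the next at 11.48 (gap over range 0.714).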

How the results depend on the processing

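In 115 fits under other settings, which gave 920 values for the 8 genes, 0 passed the adjusted p (lowest 0.21). Of 426 such values for changes that the text names, 414 kept their direction and call and 12 turned their sign. Leaving out single rats turned these signs, all of small changes that had not passed the test. Another test, another handling of the block or a filter on signal leaves the log2 fold change as it is. Under these settings only the call could change, so their kept directions carry no information. For Li+ against Ctrl over both days RT1-Ba ranged from -0.0069 to 0.0644, with -0.0052 without rat 4 and -0.0069 without rat 23, and RT1-Bb from -0.0789 to 0.0195, with 0.0195 without rat 5 and 0.0087 without rat 10. Over time in rat averages RT1-Bb ranged from -0.2527 to 0.2871, with -0.0712 without rat 4, -0.1403 without rat 11, -0.2185 without rat 15, -0.0364 without rat 21, -0.2527 without rat 28 and -0.1586 without rat 29. RT1-Ba ranged there from -0.0226 (without rat 28) to 0.1984, and Cd74 over time in Li+ from -0.008 (without rat 28) to 0.0867. The medians of the 8 genes over time turned their sign without rat 28 (-0.0035 in Ctrl, -0.0378 in Li+ and -0.005 in rat averages), and that of Li+ against Ctrl at day 7 ranged from -0.072 to 0.0678 and was -0.0059 with each array centered on its median. The cause was not tested. With no replicate block, RT1-DMa stood at -0.0999 (standard error 0.0485) for Li+ against Ctrl over both days, the standard error of RT1-Bb was 0.368 against 0.0755 with the pairing, and no call changed. Without the 3 arrays high in muscle genes, 5 of the 10 genes most alike to the class II mean were shared, and with RT1-Bb left out of that mean 2 of 10, or 4 of 10 with group means removed. The last alternative and leaving out each rat for the between-rat share were added after seeing the data. The number of rats limits the precision, and the table gives no signal over background.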
